A study of Mus musculus with 6 samples.

Results

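Genes that attach water-soluble groups to foreign and internal compounds, genes of antioxidant defence and the metallothioneins were examined in NHE3-/- colon. NHE3, encoded by Slc9a3, exchanges sodium for protons across the luminal membrane of epithelial cells. The set holds 46 genes of 18193 named by a single-gene probe set on the array. They are the genes whose symbols begin with Gsta, Gstm, Gstp, Gstt, Gsto, Ugt1a, Ugt2b, Sult1 or Sult2, together with Nqo1, Hmox1, Gclc, Gclm, Txnrd1, Srxn1, Gpx1 to Gpx4, Mt1 and Mt2. They were read by 64 probe sets, and where a gene had several, the one with the highest signal averaged over the 6 arrays stands for it. No Ugt1a gene entered, since 3 probe sets are annotated to several Ugt1a genes jointly. Signals came from Affymetrix MOE430 2.0 arrays hybridised with total RNA of whole colon, 3 arrays from NHE3-/- mice and 3 from NHE3+/+ littermates, all aged 6 to 8 weeks, with no treatment recorded. Neither strain nor sex is labelled. The labels leave unsaid whether the arrays come from different animals. The p-values therefore reflect only how these 6 arrays scatter, and that scatter may be technical. The disrupted stretch of Slc9a3 is not labelled either, and a probe set outside it checks nothing.

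As background, glutathione S-transferases, UDP-glucuronosyltransferases and sulfotransferases join glutathione, glucuronic acid or sulfate to reactive or lipophilic molecules, which eases their export. The intestinal epithelium is a main site of this metabolism because it meets dietary and microbial compounds first. The transcription factor NRF2, held back by KEAP1, raises many glutathione, quinone-reducing and thioredoxin genes under oxidative or electrophilic stress. Metallothioneins are small cysteine-rich proteins that bind zinc and copper, and their genes respond to zinc through the factor MTF1 and to glucocorticoids.

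The metallothionein genes Mt1 and Mt2 showed the highest rises of the set, with NHE3-/- means 3.66 and 3.15 times the NHE3+/+ means. Sult2b1, Sult1b1, Gstp3, Txnrd1 and Srxn1 also rose in NHE3-/- colon. Sult1c2, Gclc, Gsta4, Ugt2b5, Gstm3 and Gstm1 fell. The test was limma on log2(signal + 31.4), with p-values adjusted over all 27022 probe sets past a filter on dim signal and a threshold of 0.05. Of the 46 genes, 35 passed the filter, and 7 of these were called higher and 6 lower in NHE3-/- colon. Over all probe sets tested, 11.2% were called, 4.97% higher and 6.24% lower. The median log2 fold change was 0.0014 over the 35 genes tested and -0.10 over all probe sets tested. The 11 genes below the filter had signals of 1 to 85.2 on the 6 arrays and were not tested. The NHE3-/- and NHE3+/+ signals did not overlap in 18 of the 35 genes, 11 higher and 7 lower, against 32.3% of all probe sets tested, 12.2% higher and 20.1% lower. With the arrays' medians set equal the calls were 7 higher and 3 lower, that is 70% higher against 53.8% as deposited. The plot of log2 fold changes by family shows calls in both directions among glutathione S-transferases, sulfotransferases and NRF2-linked enzymes.

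**Figure D1:**
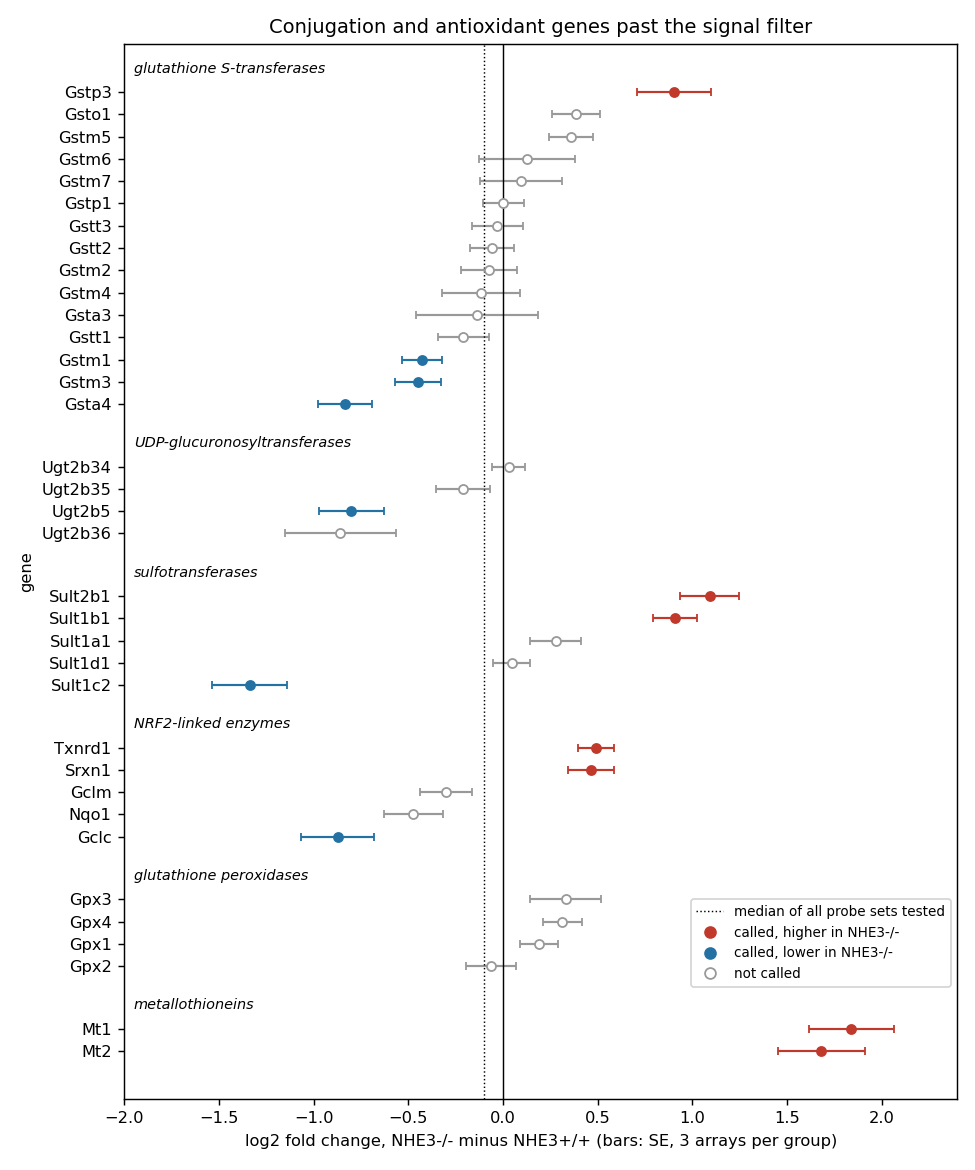
Log2 fold change (NHE3-/- minus NHE3+/+, on the log2(signal + 31.4) scale) of the 35 genes past the filter, grouped by family, with limma standard errors as bars. Filled points passed the threshold, open points did not, and the dotted line marks the median of all probe sets tested at -0.10. Mt1 and Mt2 lie farthest to the right and Sult1c2 farthest to the left.

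The targeted gene, Slc9a3, had 2 probe sets. One gave 5970.4, 4265.6 and 3665.3 on NHE3-/- arrays 1, 2 and 3, against 5908.3, 5647.4 and 6668.7 on NHE3+/+ arrays 1, 2 and 3, and did not pass (log2 fold change -0.42, SE 0.16; limma adjusted p = 0.120). The dimmer one had 473.4, 608.7 and 264.9 in NHE3-/- colon, against 345.6, 344.8 and 107.8 in NHE3+/+ colon (0.76, SE 0.39; limma adjusted p = 0.230). Both overlapped between the groups. The arrays also differed in Xist, the RNA of the inactive X chromosome of female cells. Its signal was 2639 and 1929.1 on NHE3-/- arrays 1 and 2, but 12.3 on NHE3-/- array 3 and 2 to 8 on the NHE3+/+ arrays. The Y-linked gene Eif2s3y had 932.6, 1088.1 and 1355.4 on NHE3-/- arrays 1 to 3, against 1434.3 to 1808.9 on the NHE3+/+ arrays. Kdm5d had 341.3, 405.5 and 732.9 on the NHE3-/- arrays, against 654.2 to 783.6 on the NHE3+/+ arrays, and Uty 338.9, 316.8 and 450.6 on the NHE3-/- arrays, against 240.6 to 430 on the NHE3+/+ arrays. Xist and Y-linked signals were thus both present on NHE3-/- arrays 1 and 2, and these values do not label either array as one sex. NHE3-/- array 3 was the one farthest from the NHE3+/+ mean for 12 of the 13 called genes, and for 57.2% of the 3027 called probe sets of the whole table. With NHE3-/- array 3 alone against the NHE3+/+ arrays, assuming that it varies as they do, 5 genes of the set were called higher and 4 lower. In that fit Gstm1 (-0.39), Gstm3 (-0.62), Srxn1 (0.53) and Txnrd1 (0.56) kept their sign without passing.

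Marker genes of several cell types differed between the groups as well. Of 10 absorptive colonocyte markers 5 were higher, with summed signals of 274792 to 355495 on NHE3-/- arrays and 211280 to 267700 on NHE3+/+ arrays. The colonocyte count was 7 with medians set equal and 3 without the mean-variance trend. Of 7 tested markers of crypt base and dividing cells 6 were lower, with sums of 3904 to 4933 on NHE3-/- arrays and 7328 to 8099 on NHE3+/+ arrays. That count was 2 with Xist as a covariate, 2 with NHE3-/- array 3 alone, 3 without the mean-variance trend and 4 with medians set equal, none of them higher. Of 7 adipocyte markers 3 were tested and Adipoq, Fabp4 and Car3 were each lower, with sums of 261.5 to 1087 on NHE3-/- arrays and 1386 to 5889 on NHE3+/+ arrays. Adipoq had 36.4, 71.7 and 14.1 on NHE3-/- arrays, against 156.2, 526.3 and 90.3 on NHE3+/+ arrays. Its NHE3-/- mean alone lies under the filter, so Adipoq was tested because of its NHE3+/+ signals. The adipocyte count was 0 without NHE3+/+ array 2, and 1 without NHE3-/- array 1, NHE3-/- array 3 or NHE3+/+ array 1. It was also 0 without the mean-variance trend and 1 without the filter. None of 8 goblet cell markers was higher and 1 was lower, none of 7 tested macrophage markers was called, and hepatocyte markers gave no call among 4 tested. Goblet cell markers gave 2 higher with medians set equal, 1 higher with Xist as a covariate and 3 lower with quantile normalization. Without NHE3-/- array 3, 1 hepatocyte marker was lower. Smooth muscle and fibroblast markers gave no call either, and no red blood cell marker was tested. Of 4 neutrophil markers only S100a8 was tested, and it was higher, with 3033.7, 717.7 and 1356.3 on NHE3-/- arrays and 41.2 to 59 on NHE3+/+ arrays, where the NHE3+/+ signals alone lie under the filter. S100a9, Csf3r and Cxcr2 were below the filter and were not tested. S100a9 had 146.8, 78.2 and 50.6 in NHE3-/- colon, against 30.1, 41.1 and 28.1 in NHE3+/+ colon, without overlap. Means were 50.7 in NHE3-/- colon and 71.3 in NHE3+/+ colon for Csf3r. For Cxcr2 they were 30 in NHE3-/- colon and 28.1 in NHE3+/+ colon. Mast cell markers had 2 of 4 tested higher and 1 lower, small-intestinal enterocyte markers 2 of 6 higher and pancreas markers 1 of 3 tested lower. Retn and Lep among the adipocyte markers, Cd163 among the macrophage markers and Serpina1c and Fgb among the hepatocyte markers were below the filter. The part of these cells in the results below was not tested, and in whole tissue fewer cells of a type and less RNA per cell cannot be told apart.

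Glutathione S-transferases gave 1 gene higher and 3 lower among 15 of 18 past the filter. In the alpha class, Gsta4, which conjugates the lipid peroxidation product 4-hydroxynonenal, had signals of 1279.3, 1410.4 and 1093 on NHE3-/- arrays 1 to 3, against 2433.8, 1897.9 and 2491.1 on NHE3+/+ arrays 1 to 3. Every NHE3-/- array was below every NHE3+/+ array. The fall was 0.83 on the log2 scale (SE 0.14; limma adjusted p = 0.00451), and it passed in all 17 alternative settings. Gsta3 had a log2 fold change of -0.14 (SE 0.32), and Gsta2 was below the filter with signals of 8.3 to 79.9. A probe set annotated jointly to 3 alpha-class genes lies outside the set. It was called higher (1.25, SE 0.16), opposite to Gsta4, and its signals are given in a later section.

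Among the 7 mu-class genes, all past the filter, 2 were called. Gstm1 had signals of 2662.7, 2830.5 and 2850.7 in NHE3-/- colon, against 3980.1, 3905.3 and 3386 in NHE3+/+ colon. The log2 difference was -0.43 (SE 0.11; limma adjusted p = 0.0264). The groups did not overlap, and a further Gstm1 probe set was also called lower (-0.42, SE 0.11), while 2 dimmer ones had -0.20 and -0.87 and were not called. Gstm1 lost its call without NHE3-/- array 1 (-0.40), 2 (-0.44) or 3 (-0.44) and without NHE3+/+ array 1 (-0.38) or 2 (-0.40). Gstm3 had signals of 1889.2, 1624 and 1457.8 in NHE3-/- colon, against 2381.6, 2148.8 and 2263.6 in NHE3+/+ colon. The log2 difference was -0.45 (SE 0.12; limma adjusted p = 0.0386). That call came from a probe set of the _s_at kind, whose probes can match related transcripts. The other Gstm3 probe set, of the plain _at kind, had a log2 fold change of 0.22 (SE 0.16) and was not called, so the 2 disagreed in sign. Gstm3 also lost its call without NHE3-/- array 2 (-0.44) or 3 (-0.36) and without NHE3+/+ array 1 (-0.41), 2 (-0.49) or 3 (-0.45). Gstm5, a mu-class enzyme, had signals of 2610.3, 2674.4 and 2698.3 in NHE3-/- colon, against 2277.2, 2147.5 and 1804.2 in NHE3+/+ colon. All NHE3-/- arrays were above all NHE3+/+ arrays, yet the log2 fold change of 0.36 (SE 0.12) did not pass (adjusted p = 0.0695). Gstm2, Gstm4, Gstm6 and Gstm7 had log2 fold changes from -0.12 to 0.13 and overlapped between the groups. The 7 mu-class genes lie side by side on the chromosome, and signal from such close copies on shared probes cannot be separated here.

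In the pi class, Gstp3 had signals of 390.6, 476.1 and 555.2 on the NHE3-/- arrays, against 196.5, 237.3 and 281.8 on the NHE3+/+ arrays. The groups did not overlap, and the log2 fold change was 0.90 (SE 0.20; limma adjusted p = 0.0147). Its call was lost without NHE3-/- array 3 (0.79). Gstp1, the common pi-class enzyme, had signals of 16425.3, 16669.9 and 20717.4 in NHE3-/- colon, against 18305.7, 18044.7 and 17123.7 in NHE3+/+ colon. These overlapped and gave a log2 fold change of 0.0014 (SE 0.11). In the omega class, Gsto1, which reduces dehydroascorbate, did not overlap between the groups, with 12358.1, 13346.1 and 15507.6 in NHE3-/- colon and 11935.8, 9022.1 and 10659.5 in NHE3+/+ colon. Its log2 fold change of 0.38 (SE 0.13) did not pass (adjusted p = 0.0745). It passed without NHE3+/+ array 1 (0.48). The theta-class genes Gstt1, Gstt2 and Gstt3 had log2 fold changes of -0.21, -0.06 and -0.03, all overlapping. Gsto2 and Gstt4 were below the filter.

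UDP-glucuronosyltransferases of the 2b subfamily gave 1 call, lower, among 4 of 7 genes past the filter. Ugt2b5 had signals of 1091.3, 934.4 and 766.2 on the NHE3-/- arrays, against 1719.7, 1303.6 and 1922.8 on the NHE3+/+ arrays. The groups were apart, with a log2 difference of -0.80 (SE 0.17; limma adjusted p = 0.0136). The call was lost without NHE3+/+ array 3 (-0.68) and with medians set equal (-0.68). Its neighbour Ugt2b36 had a log2 fold change of -0.86 (SE 0.29), with 287.9, 184.2 and 143.5 in NHE3-/- colon and 474.9, 241.3 and 488.8 in NHE3+/+ colon. These groups overlapped and the value did not pass (adjusted p = 0.0851). Without NHE3+/+ array 2, the lowest of its group, Ugt2b36 passed at -1.16. Ugt2b34 kept within a narrow range, at 11222, 10895.4 and 11293.1 in NHE3-/- colon and 10811.4, 10822.5 and 11086.6 in NHE3+/+ colon, a log2 fold change of 0.03 (SE 0.09). Ugt2b35 had -0.21 (SE 0.14). Ugt2b1, Ugt2b37 and Ugt2b38 were below the filter, with signals of 1 to 63.7.

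Sulfotransferases had 2 genes higher and 1 lower among 5 of 9 past the filter. Sult2b1, which sulfates cholesterol and related hydroxysteroids, had signals of 1880.5, 1601.3 and 2124.9 in NHE3-/- colon, against 792.9, 1054.1 and 746.8 in NHE3+/+ colon. The lowest NHE3-/- array exceeded the highest NHE3+/+ array, and the log2 fold change was 1.09 (SE 0.16; limma adjusted p = 0.00175). Sult1b1, an enzyme for thyroid hormones and small phenols, had 9313.8, 9784 and 11858.5 in NHE3-/- colon, against 5896.2, 5376 and 5116.7 in NHE3+/+ colon. The log2 difference was 0.91 (SE 0.11; limma adjusted p = 0.000756). All NHE3-/- arrays were again above all NHE3+/+ arrays. Sult1c2, a cytosolic sulfotransferase, showed the largest fall of the set. It had 1151.9, 1115.7 and 731.1 in NHE3-/- colon, against 3076.7, 1939.4 and 2704 in NHE3+/+ colon. The log2 difference was -1.34 (SE 0.20; limma adjusted p = 0.00217). Each of these 3 calls held in all 17 alternative settings.

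The remaining sulfotransferases did not pass. Sult1d1, which in mice sulfates catecholamines and lies next to Sult1b1, had signals of 12811.6, 11498.9 and 13260.7 in NHE3-/- colon, against 12228.5, 11464.7 and 12658 in NHE3+/+ colon. Its log2 fold change was 0.05 (SE 0.10), and a further probe set gave 0.05 as well. Sult1a1, a phenol sulfotransferase, had 0.28 (SE 0.14; adjusted p = 0.215), and it passed without NHE3+/+ array 1 (0.43). Sult1e1, which sulfates oestrogens, Sult1c1, Sult2a2 and Sult2a8 were below the filter, with signals of 2.4 to 85.2.

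NRF2-linked enzymes were called in both directions, with 2 higher and 1 lower among 5 of 6 genes past the filter. Txnrd1, the cytosolic selenoenzyme that reduces thioredoxin, had signals of 8744.7, 8228.2 and 9133.8 in NHE3-/- colon, against 6187.2, 5832.6 and 6522.4 in NHE3+/+ colon. The groups did not overlap, and the log2 fold change was 0.49 (SE 0.10; limma adjusted p = 0.00892). Its 2 further probe sets gave 0.71 (called) and 0.78 (not called). Srxn1, sulfiredoxin, which restores over-oxidised peroxiredoxins, had 2990.5, 3085.7 and 3274.3 in NHE3-/- colon, against 2616.3, 2000.8 and 2176.6 in NHE3+/+ colon. Its log2 fold change was 0.46 (SE 0.12; limma adjusted p = 0.0319), and its 3 other probe sets gave 0.69 (called), 0.55 and 0.20 (not called). The Srxn1 call was lost without NHE3-/- array 1 (0.49), 2 (0.47) or 3 (0.43) and without NHE3+/+ array 2 (0.38) or 3 (0.44).

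In glutathione synthesis, 1 of 2 subunit genes was called lower. Gclc, the catalytic subunit of glutamate-cysteine ligase, the first enzyme of glutathione synthesis, had signals of 3160.2, 2755.5 and 1735.8 in NHE3-/- colon, against 4017.1, 5117.3 and 4612 in NHE3+/+ colon. No NHE3-/- array reached the lowest NHE3+/+ array, and the log2 fold change was -0.87 (SE 0.19; limma adjusted p = 0.0152). A further Gclc probe set had -0.43 (SE 0.15) without passing, and the call was lost without NHE3+/+ array 2 (-0.79). Gclm, the modifier subunit, had -0.30 (SE 0.14; adjusted p = 0.183). Nqo1, which reduces quinones, had signals of 444.2, 362.2 and 490.7 in NHE3-/- colon, against 606, 620 and 599.7 in NHE3+/+ colon. Those groups were apart, yet the log2 fold change of -0.47 (SE 0.16) did not pass (adjusted p = 0.0760). Hmox1, the inducible haem oxygenase, was below the filter at 63, 57.1 and 18.7 in NHE3-/- colon and 24.7, 8.7 and 17.1 in NHE3+/+ colon.

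The promoters of Txnrd1 and Srxn1 are shown because both genes were called higher and both are textbook NRF2 targets. They are RefSeq windows of build GRCm38.p6, from 250 bases before to 50 bases after an annotated start, written 5′ to 3′. Capitals mark only 1 form of the core of the antioxidant response element, TGACNNNGC, searched on both strands. Variants of the core were not searched, so lower-case letters may hold them, in the Srxn1 window as elsewhere. All counts here are of the searched form alone. That form stood once in 1 of 3 annotated Txnrd1 windows (chr10:82858956-82859255, plus strand). It also stood once in the single Srxn1 window (chr2:152105274-152105573, plus strand). Of all 32851 promoter windows of that length 12.4% held it. That share is per window, and a gene with 3 windows has more places for a match. The Gclm window also held 1 match and the Nqo1 window held none. Gclc and Hmox1 had no promoter sequence and were not searched. Elsewhere in the set, Gsta3, Gstm5, Gstm7 and Mt2 each had a window with 1 match, and of these only Mt2 was called. A match describes the letters and is no evidence of binding.
Txnrd1: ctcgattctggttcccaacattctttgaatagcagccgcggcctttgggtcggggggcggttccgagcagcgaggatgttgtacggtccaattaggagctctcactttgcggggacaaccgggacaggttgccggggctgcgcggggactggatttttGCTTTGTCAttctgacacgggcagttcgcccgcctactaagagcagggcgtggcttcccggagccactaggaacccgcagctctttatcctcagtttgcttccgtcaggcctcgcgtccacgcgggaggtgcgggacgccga
Srxn1: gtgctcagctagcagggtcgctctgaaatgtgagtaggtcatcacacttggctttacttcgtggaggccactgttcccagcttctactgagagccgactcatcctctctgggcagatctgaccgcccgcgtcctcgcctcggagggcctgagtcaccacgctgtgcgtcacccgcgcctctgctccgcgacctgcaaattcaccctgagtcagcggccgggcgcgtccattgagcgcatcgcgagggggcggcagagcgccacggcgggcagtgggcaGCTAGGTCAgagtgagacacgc

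Glutathione peroxidases, which use glutathione to reduce peroxides, gave no call among 4 genes, all past the filter. At an unadjusted p below 0.05 the limma test passed 1 of them, Gpx4. Gpx4, which acts on lipid hydroperoxides, had signals of 4528.9, 4420.3 and 5153.3 in NHE3-/- colon, against 3870.3, 3642.7 and 3794.7 in NHE3+/+ colon. These groups did not overlap, with a log2 difference of 0.31 (SE 0.10; limma adjusted p = 0.0724). A second Gpx4 probe set, of the _x_at kind that can read other transcripts, had -0.13 (SE 0.12), the opposite sign. Gpx1 had 11536.7, 12412.2 and 13161.7 in NHE3-/- colon, against 9878.3, 11339.1 and 11366.8 in NHE3+/+ colon. The log2 difference was 0.19 (SE 0.10; limma adjusted p = 0.256). Gpx2, the form of the gastrointestinal epithelium, had -0.06 (SE 0.13), and Gpx3, the secreted form, 0.33 (SE 0.19).

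Both metallothionein genes rose. Mt1 had signals of 12829.9, 9606.4 and 18428 on the NHE3-/- arrays, against 2895.4, 3538.7 and 4738.9 on the NHE3+/+ arrays. The lowest NHE3-/- array was above the highest NHE3+/+ array, and the log2 fold change was 1.84 (SE 0.22; limma adjusted p = 0.000581). Mt2, its neighbour on the chromosome, had 4382.3, 3667.2 and 5395.4 in NHE3-/- colon, against 968.7, 1272.7 and 2033.6 in NHE3+/+ colon. The log2 difference was 1.68 (SE 0.23; limma adjusted p = 0.00122). In both genes NHE3-/- array 3 was highest and NHE3-/- array 2 lowest within the NHE3-/- group. Mt1 passed in the 16 alternative settings in which it was tested, with log2 fold changes of 1.60 to 2.35, and Mt2 in all 17, with 1.44 to 1.98. The Mt1 probe set is of the _s_at kind, and the other Mt1 probe set was below the filter, with 117, 101 and 61.4 in NHE3-/- colon and 24.1, 31.6 and 56 in NHE3+/+ colon. The signals of each array are drawn for all 13 called genes.

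**Figure D2:**
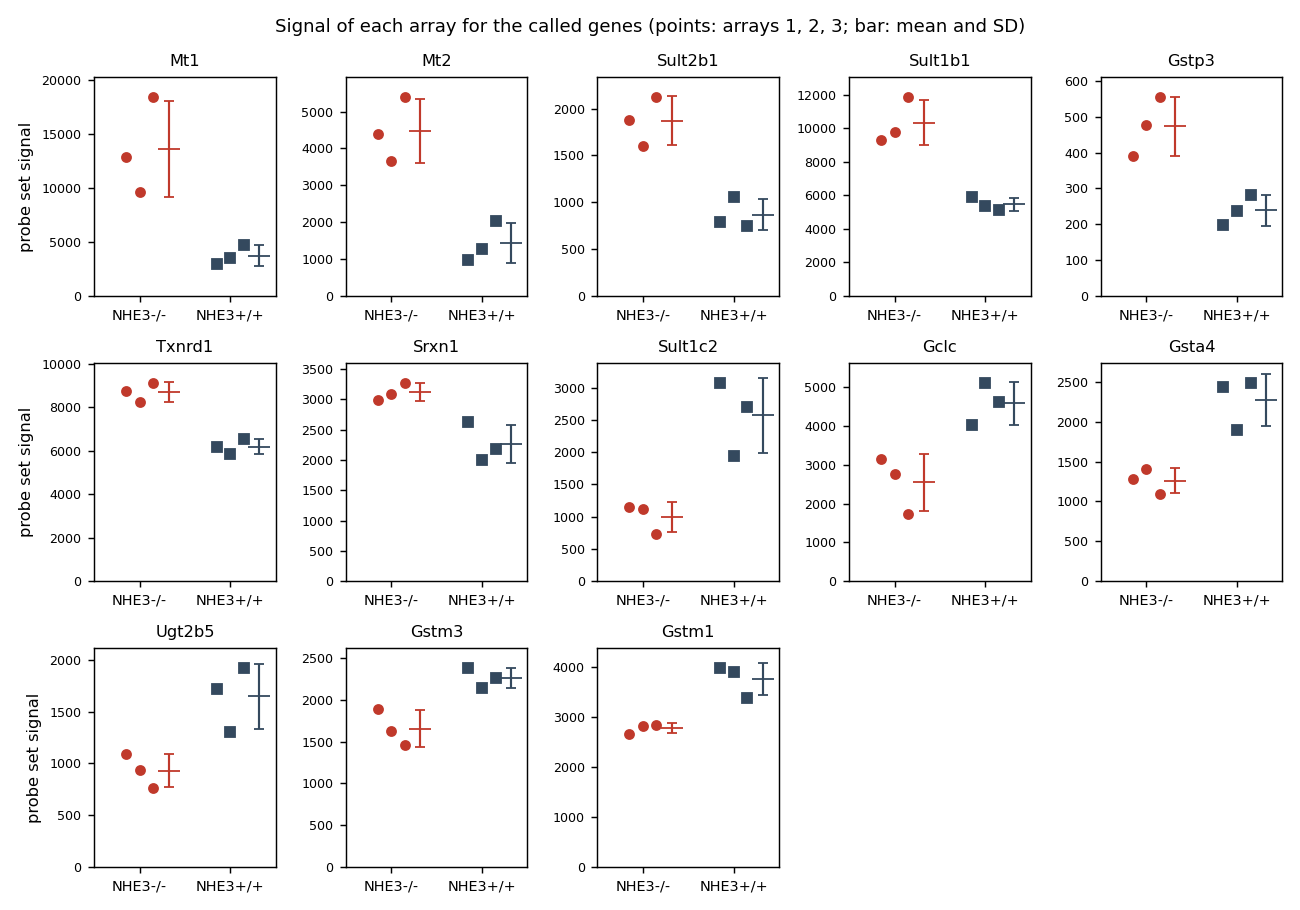
Probe set signal (deposited linear scale, axis from 0) of the 13 called genes, with NHE3-/- arrays as circles on the left and NHE3+/+ arrays as squares on the right, in the order of arrays 1, 2 and 3, and mean and SD beside them. In no panel do the groups overlap, and Mt1 runs from 9606.4 to 18428 in NHE3-/- colon against 2895.4 to 4738.9 in NHE3+/+ colon.

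The promoters of Mt1 and Mt2 are shown because the pair moved together. They are RefSeq windows of build GRCm38.p6 over the same 300 bases around an annotated start, at chr8:94178839-94179138 and chr8:94172368-94172667, both on the plus strand. Capitals mark the core of the metal response element, to which MTF1 binds, searched on both strands as TGCACNC or TGCGCNC. There were 3 matches in the Mt1 window and 4 in the Mt2 window, none overlapping another. The window of Gclm, which was not called, also held 3, and that of Gsta2, below the filter, held 2. Srxn1, Sult1b1, Sult2b1, Gstm1, Gstm4, Gstm5, Gstt1 and Gsto2 each had at least 1 window with 1 match. Of all 32851 promoter windows 25.7% held at least 1 match, 1.97% at least 3 and 0.517% at least 4. A match describes the letters and is no evidence of binding.
Mt1: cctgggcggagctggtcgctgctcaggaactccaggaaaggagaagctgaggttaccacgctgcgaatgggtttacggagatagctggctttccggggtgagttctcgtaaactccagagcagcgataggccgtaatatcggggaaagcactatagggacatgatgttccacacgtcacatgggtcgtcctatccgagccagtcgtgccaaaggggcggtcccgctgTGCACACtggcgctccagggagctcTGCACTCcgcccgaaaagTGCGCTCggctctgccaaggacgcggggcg
Mt2: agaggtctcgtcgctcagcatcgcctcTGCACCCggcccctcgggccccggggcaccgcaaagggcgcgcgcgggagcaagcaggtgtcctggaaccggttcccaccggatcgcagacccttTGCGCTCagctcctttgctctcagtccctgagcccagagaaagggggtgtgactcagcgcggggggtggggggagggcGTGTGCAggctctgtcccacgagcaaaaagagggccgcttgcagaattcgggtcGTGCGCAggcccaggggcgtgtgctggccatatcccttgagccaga

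For 13 genes of the set more than 1 probe set was available, 31 in all. In 11 of these genes all probe sets had the same sign, the exceptions being Gstm3 and Gpx4. In 8 of them every tested probe set gave the same call as the representative. Gstm1, Gstm3, Gclc, Srxn1 and Txnrd1 each had at least 1 probe set that passed and 1 that did not.

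**Figure D3:**
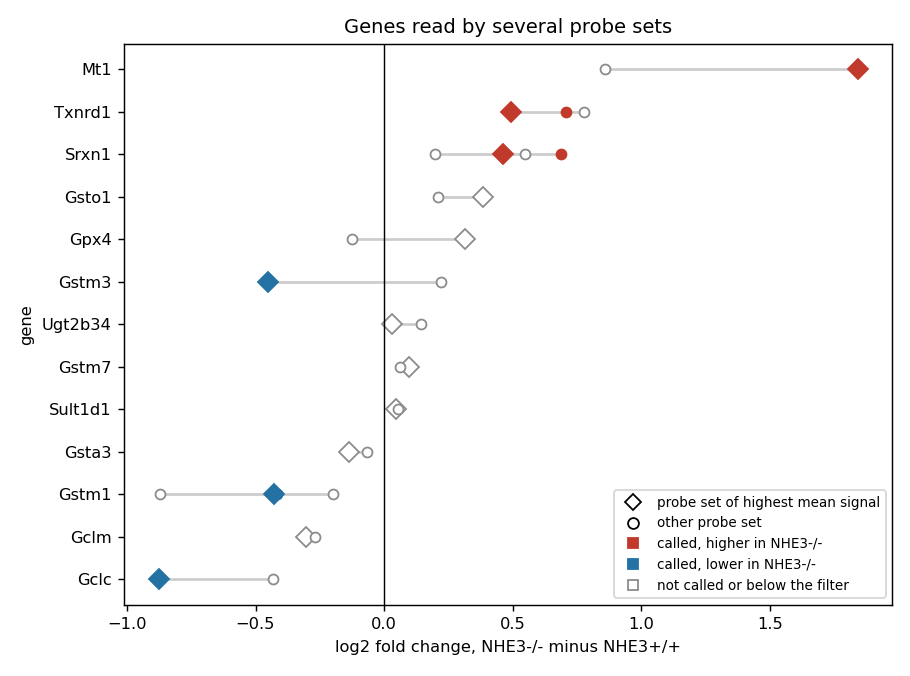
Log2 fold change (NHE3-/- minus NHE3+/+) of each probe set of the 13 genes read by several. Diamonds are the probe sets of highest mean signal that represent the gene, circles the others, and filled symbols passed the threshold. The Gstm3 and Gpx4 probe sets lie on both sides of 0, while all those of Txnrd1 and Srxn1 are positive.

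Genes around these pathways were taken from 10 lists of 144 genes, of which 124 were tested, with 22 higher and 15 lower. That is 29.8% of them, beside 11.2% of all probe sets tested, and these lists were chosen with results known. The totals were 26 higher and 7 lower with medians set equal, 8 and 4 without the mean-variance trend, 11 and 10 with NHE3-/- array 3 alone, 12 and 10 without NHE3-/- array 1, 15 and 9 without NHE3-/- array 3, 14 and 14 without NHE3+/+ array 1 and 18 and 8 without NHE3+/+ array 3. The lists' median log2 fold changes ran from -0.17 to 0.12, beside -0.10 over all probe sets tested. Zinc, copper and iron handling had 6 of 21 genes higher and 3 lower. Slc30a1, Slc30a4, Slc39a8 and Slc39a10 are outside the 3 largest changes and were chosen after their values were seen. Slc30a1, the zinc exporter that is a textbook MTF1 target like the metallothioneins, had signals of 4313.8, 3945 and 4593.1 in NHE3-/- colon, against 2200.7, 2150.9 and 2595.6 in NHE3+/+ colon. It rose by 0.88 on the log2 scale (SE 0.11; limma adjusted p = 0.000897). Mtf1 itself had -0.10 (SE 0.15; adjusted p = 0.723). Slc39a10, a zinc importer, fell by 1.07 (SE 0.21), with 207.6, 203.5 and 188 in NHE3-/- colon against 529.9, 334.2 and 521.2 in NHE3+/+ colon. The other genes called lower were Slc30a4 (-0.49, SE 0.11), of the same family as Slc30a1, and Slc39a8 (-0.65, SE 0.15). Slc30a4 lost its call without NHE3-/- array 3 (-0.43) or NHE3+/+ array 2 (-0.47). Slc39a8 lost its call without NHE3-/- array 1 (-0.55) or NHE3+/+ array 1 (-0.58) or 3 (-0.61). Tfrc, the transferrin receptor, rose by 1.39 (SE 0.10), and Slc11a2, the ferrous iron importer, by 1.51 (SE 0.37). Slc30a2, a vesicular zinc transporter, had 113.8, 149.9 and 172.3 in NHE3-/- colon, against 13.4, 58.5 and 49.5 in NHE3+/+ colon. The NHE3+/+ signals alone lie under the filter, so the gene was tested because of its NHE3-/- signals, and its log2 difference of 1.35 (SE 0.34) was not called without the filter. It was the single called gene of these 10 lists with a group under the filter, while no called gene of the 46 had one. Slc11a2 lost its call without NHE3-/- array 1 (1.03) or NHE3+/+ array 1 (1.40) or 3 (1.35). Slc30a2 kept its call without NHE3+/+ array 2 and lost it without any other array, with values of 1.04 to 1.48. The list had 3 genes higher without NHE3-/- array 1 or NHE3+/+ array 1.

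Regulators of NRF2 gave 2 genes higher and 1 lower of 8. Nfe2l2, which encodes NRF2, had a log2 difference of -0.10 (SE 0.10; limma adjusted p = 0.544) and Keap1 -0.40 (SE 0.13; adjusted p = 0.0789). Maff, a small MAF partner, rose by 0.95 (SE 0.20; limma adjusted p = 0.0122) and passed in every leave-out. It did not pass without the mean-variance trend (0.95) or with NHE3-/- array 3 alone (1.08). Bach1, a repressor of NRF2 target sites, had 0.43 (SE 0.11) and Mafg -0.65 (SE 0.18). Bach1 lost its call without NHE3-/- array 1 (0.39) or 3 (0.45) or NHE3+/+ array 1 (0.41) or 2 (0.40). Mafg kept its call without NHE3+/+ array 1 and lost it without any other, at -0.74 to -0.48.

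Of 13 tested genes of glutathione recycling and other transferases, 2 were higher and 1 lower. Gstk1, the kappa-class transferase, fell by 1.08 (SE 0.11; limma adjusted p = 0.000212), with signals of 2357.2, 1881.5 and 2222.9 in NHE3-/- colon against 4503.4, 4517 and 4647.4 in NHE3+/+ colon. Chac1, which degrades glutathione, had -0.67 (SE 0.22; not called). Glo1, glyoxalase 1, had 0.47 (SE 0.12) and lost its call without any array but NHE3-/- array 3, at 0.36 to 0.50. Among 6 genes of NADPH supply, Me1, malic enzyme 1, was the single call. It fell by 1.41 (SE 0.17; limma adjusted p = 0.000598), with 616.5, 557.9 and 423 in NHE3-/- colon against 1232.2, 1434.4 and 1725.3 in NHE3+/+ colon. Tigar (0.25) and Tkt (-0.14) were not called. Gstk1 and Me1 passed in every alternative. Among 9 tested thioredoxin, peroxiredoxin, catalase and superoxide dismutase genes, 1 was higher. That was the mitochondrial Prdx3 (0.38, SE 0.10), whose call was lost without any 1 array, at 0.33 to 0.42. Sod1 (-0.53) and Sod2 (0.29) were not called. Selenoprotein genes gave 2 lower of 10, Selenow (-0.75, SE 0.13) and Selenos (-0.55, SE 0.13). Selenos lost its call without NHE3-/- array 1 (-0.50) or 3 (-0.51) or NHE3+/+ array 3 (-0.44). Eefsec had -0.64 (SE 0.20; not called).

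For the supply of conjugation cofactors, 2 of 7 tested genes were higher and 1 lower. Slc26a2, a sulfate transporter, rose by 0.83 (SE 0.11; limma adjusted p = 0.00101) and kept its call in every alternative, at 0.68 to 0.95. Slc35d1, which carries UDP-glucuronic acid into the endoplasmic reticulum, had -0.48 (SE 0.13) and lost its call without any 1 array, at -0.57 to -0.36. Slc26a1 was below the filter. Conjugate exporters gave 1 higher and 1 lower of 6 tested. Abcg2 rose by 0.50 (SE 0.10) and lost its call without NHE3-/- array 1 (0.45). Abcc5 had -0.84 (SE 0.22) and lost its call without NHE3-/- array 1 (-0.86) or 3 (-0.67) or NHE3+/+ array 2 (-0.66) or 3 (-0.91). Abcb1b was below the filter.

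Phase I enzymes, which oxidise or hydrolyse compounds before conjugation, had 6 of 31 tested genes higher and 4 lower. The cytochrome P450 genes Cyp3a25 (1.70, SE 0.34), Cyp2d26 (1.37, SE 0.15) and Cyp4f14 (1.18, SE 0.14) gave the largest changes and passed in each leave-out. With NHE3-/- array 3 alone Cyp3a25 had 1.08 and did not pass. Of 13 tested receptor and regulator genes 2 were higher and 1 lower. Nr1i3, the xenobiotic receptor CAR, had 1.12 (SE 0.24) and lost its call without NHE3-/- array 3 (0.96). Nr1h4, the bile acid receptor FXR, had 0.52 (SE 0.14) and lost its call without NHE3-/- array 1 (0.45) or 2 (0.51) or NHE3+/+ array 1 (0.51) or 2 (0.41). Cdx2, an intestinal homeobox factor, had -0.58 (SE 0.13) and lost its call without NHE3-/- array 3 (-0.50) or NHE3+/+ array 2 (-0.59) or 3 (-0.46). The aryl hydrocarbon receptor gene Ahr (-0.07), the pregnane X receptor gene Nr1i2 (0.23) and Hnf4a (0.23) were not called.

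**Figure D4:**
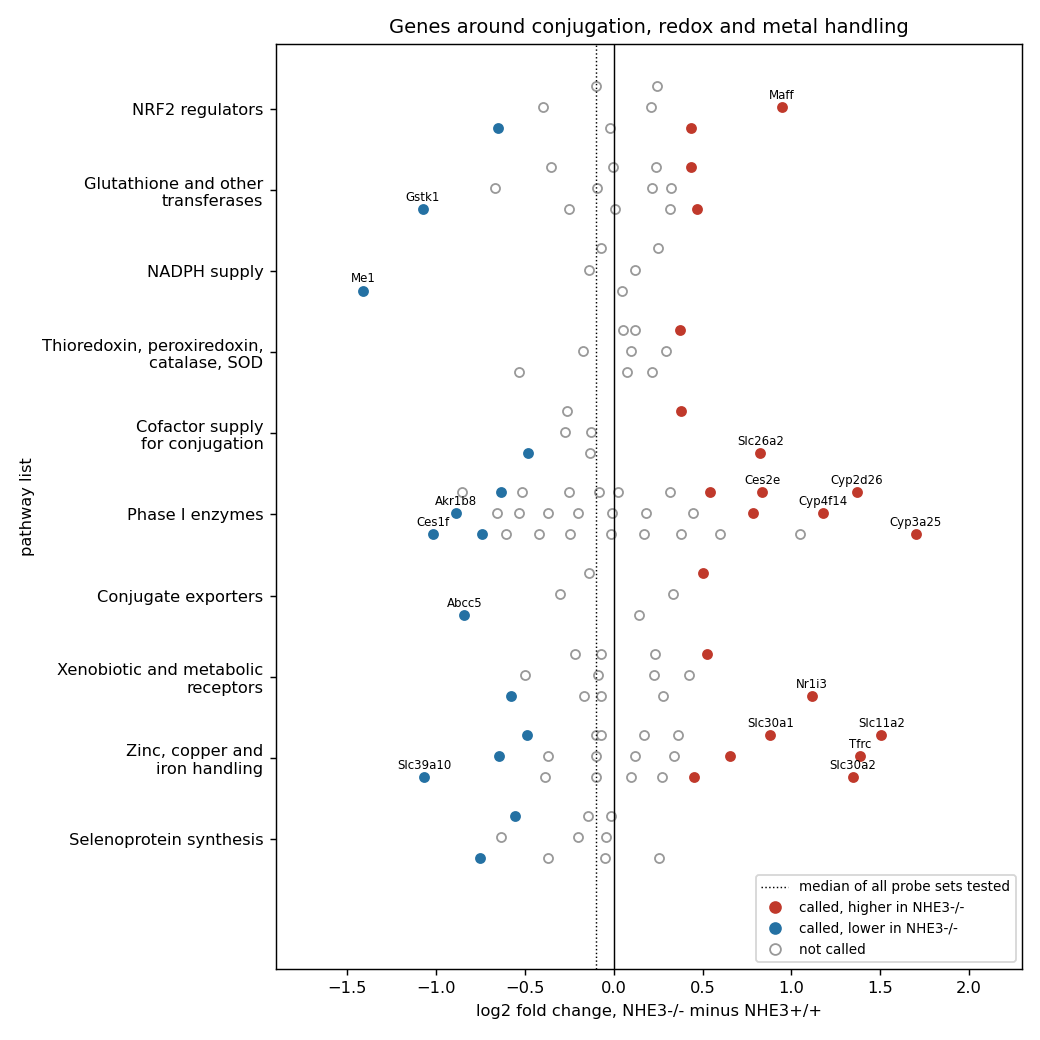
Log2 fold change (NHE3-/- minus NHE3+/+) of the 124 tested genes of 10 lists around conjugation, redox and metal handling, 1 point per gene, with vertical offsets for legibility. Filled points passed the threshold, the dotted line is the median of all probe sets tested, and called genes beyond 0.8 in size are named. Slc30a1, Tfrc and Slc11a2 lie to the right and Me1 and Gstk1 to the left.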

How the data were processed

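Total RNA of whole colon was measured on 6 single-label Affymetrix MOE430 2.0 arrays, 3 NHE3-/- and 3 NHE3+/+. Each deposited intensity is linear and summarises 1 probe set, and the submitters' processing notes name GCOS without settings. On each array the mean after trimming 2% from each end was 500, and array medians ran from 97.8 to 121.4. With 3 arrays per group, array number limits precision.

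Signals were taken to log2(signal + 31.4), where 31.4 is the 25th percentile over the table. Of 45101 probe sets, 64 controls and those with a mean log2 signal under the 40th percentile were left out, leaving 27022. NHE3-/- minus NHE3+/+ was tested with limma 3.58.1 in R 4.3.3 (lmFit, eBayes with a trend, two-sided, Benjamini-Hochberg over all tested), a fit also tested on simulated data. SE is limma's. Genes were named from the platform annotation, with symbols updated through RefSeq (34754 of 34958 single-gene probe sets matched), and 41 of 46 genes had a promoter sequence. Genes and lists were chosen with earlier results of these data known. Every gene of the set is given. From each list the 3 largest changes are named, plus Nfe2l2, Keap1, Bach1, Mtf1, Ahr, Nr1i2 and Hnf4a. Slc30a1, Slc30a4, Slc39a8 and Slc39a10 were added after their values were seen. Same-numbered arrays of the groups were not paired (correlations of deviations 0.0264, -0.0375 and 0.00343). Alternatives covered pseudocount, filter, scaling, trend, replicate block, Xist, left-out arrays and the choice of probe set.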

Additional observations from a re-analysis of the deposited data

Results flagged for a closer look

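A probe set outside the gene set, because its annotation names 3 alpha-class glutathione S-transferase genes together, carried a signal above that of the control arrays. It had 3731, 3798.3 and 5379.6 in NHE3-/- colon, against 1791.9, 1529.1 and 2016.7 in NHE3+/+ colon. The log2 fold change was 1.25 (SE 0.16; limma adjusted p = 0.000735), and every NHE3-/- array was above every NHE3+/+ array. It passed in each alternative setting run for it, at 1.08 to 1.62. Which of the 3 genes it reads was not tested. The 3 probe sets annotated jointly to 8 Ugt1a genes had log2 fold changes of -0.11, -0.20 and -0.18 and were not called.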

How the results depend on the processing

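Of the 13 called genes, Gsta4, Sult1b1, Sult1c2, Sult2b1, Mt1 and Mt2 passed in every alternative in which they were tested, and 7 passed in each of the 6 fits without 1 array. Leaving out 1 array gave 5 to 9 genes higher and 4 to 5 lower. The genes lower numbered 3 with medians set equal, where Gstm1, Gstm3 and Ugt2b5 lost their calls, and 2 without the mean-variance trend, where those 3, Gclc, Srxn1 and Txnrd1 did. With a replicate block 6 genes were higher and 4 lower, and Gstm1, Gstm3 and Srxn1 lost their calls, although the numbers do not pair the arrays. Scaling moved the median log2 fold change of tested probe sets (-0.10 in the deposited scaling) to 0.0090 when array medians were equalised and to -0.02 under quantile normalization. The calls over all probe sets were 1342 higher and 1685 lower as deposited, 1595 and 738 with medians set equal, 1075 and 1128 without a filter, and 511 and 558 without the trend. Leaving out 1 array gave 839 higher without NHE3-/- array 3. It gave 774, 832, 843 and 1011 lower without NHE3+/+ array 3, NHE3-/- array 3, NHE3+/+ array 2 and NHE3-/- array 1. With NHE3-/- array 3 alone, 767 were higher, and 915 with Xist as a covariate. The brighter Slc9a3 probe set passed at -0.76 with Xist as a covariate and at -0.72 with NHE3-/- array 3 alone, and ran from -0.61 (passing, without NHE3-/- array 1) to -0.26 with 1 array left out. The dimmer one, at 0.76, passed with the replicate block at 0.76 and ran from 0.28 to 1.07 with 1 array left out.

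Among the 22 genes tested but not called, 3 of 374 alternative values passed. Over all genes tested, the called Gstm3 among them, the sign turned in 24 values of 12 genes, none of which passed. With medians set equal these were Gstm2 (0.045), Gstt2 (0.060), Gstt3 (0.088) and Gpx2 (0.056). With quantile normalization they were Gstm4 (0.049), Gstp1 (-0.16), Ugt2b34 (-0.15) and Sult1d1 (-0.11). With Xist as a covariate they were Gstm4 (0.20) and Gstt2 (0.052), and with NHE3-/- array 3 alone Gstm4 (0.17) and Gstt2 (0.045). Without 1 array they were Gpx2 (-0.23 to 0.031), Gstt3 (-0.15 to 0.097), Gsta3 (-0.35 to 0.19), Gstm2 (-0.23 to 0.067), Gstm6 (-0.10 to 0.29), Gstm7 (-0.11 to 0.21) and Gstp1 (-0.11 to 0.061), given as ranges. Gstm3 turned to 0.22 when represented by its plain _at probe set. A jointly annotated Ugt1a probe set turned from -0.11 to 0.0075 with medians set equal, and 2 such probe sets passed after quantile normalization (-0.25 and -0.36). The causes were not tested. The 11 genes below the signal filter were tested only in the fits with a lower filter or none.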
